A study of Astyanax mexicanus with 12 samples.

Results

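Cytosolic ribosomal proteins are the protein parts of the ribosome that works in the cytoplasm. Their genes were picked here by symbol (rpl for the large subunit, rps for the small subunit, and the stalk genes rplp0, rplp1 and rplp2), which took 77 of the 14627 genes tested. The large subunit holds 49 of them and the small subunit 28. RNA was sequenced from the right ovary of wild-type Astyanax mexicanus females of 2 populations, river-dwelling surface fish and Tinaja cavefish, aged about 660 days. In each population 3 libraries came from control fish, which the labels call non-treated, and 3 from starved fish, so there were 4 groups of 3 libraries. The labels give neither the length of starvation nor whether a library is 1 fish or a pool, and p-values therefore measure spread among these libraries, which may be technical.

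Assembly of a ribosome begins in the nucleolus, from ribosomal RNA and about equal amounts of most ribosomal proteins. Messenger RNAs of vertebrate ribosomal proteins begin with a run of pyrimidines, and the nutrient-sensing kinase mTOR acts on the translation of messages with that start. Growing fish oocytes build up ribosomes and stored messenger RNA that the embryo uses later.

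The 12 libraries held 5949155 to 10198881 reads assigned to genes. Starved surface fish had TMM factors, which correct library totals for composition, of 0.911 to 0.961, against 0.989 to 1.05 in the other 9 libraries. The 77 genes had 103624 to 210189 reads per library together, and 3 further genes with matching symbols, RPL3L, rps26l and a second rpl19, had at most 11 reads in any library and were not tested. All 77 had passed the low-count filter, because the rule reads the filtered table. Oocyte markers were present in every library, with 22 tested genes summing to 10259.5 to 15507 CPM. CPM (counts scaled to a common library size) is scaled by TMM here and not corrected for gene length, so levels of different genes are not compared.

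Ribosomal protein genes took a larger share of all gene reads in starved than in control surface fish. The share was 1.68%, 1.52% and 1.55% in control surface fish and 1.90%, 1.87% and 2.06% in starved surface fish, so the lowest starved library lay above the highest control library. In Tinaja cavefish it was 1.70%, 1.70% and 1.95% in controls and 1.64%, 1.89% and 1.74% in starved fish, and these groups overlapped. The means were 1.59 ± 0.0872% and 1.94 ± 0.105% for control and starved surface fish and 1.78 ± 0.147% and 1.76 ± 0.126% for the Tinaja groups (SD, n = 3), a ratio of starved to control of 1.22 and 0.986. Counting error alone was small, with exact (Clopper-Pearson) 95% intervals of at most ± 0.0105 percentage points.

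**Figure D1:**
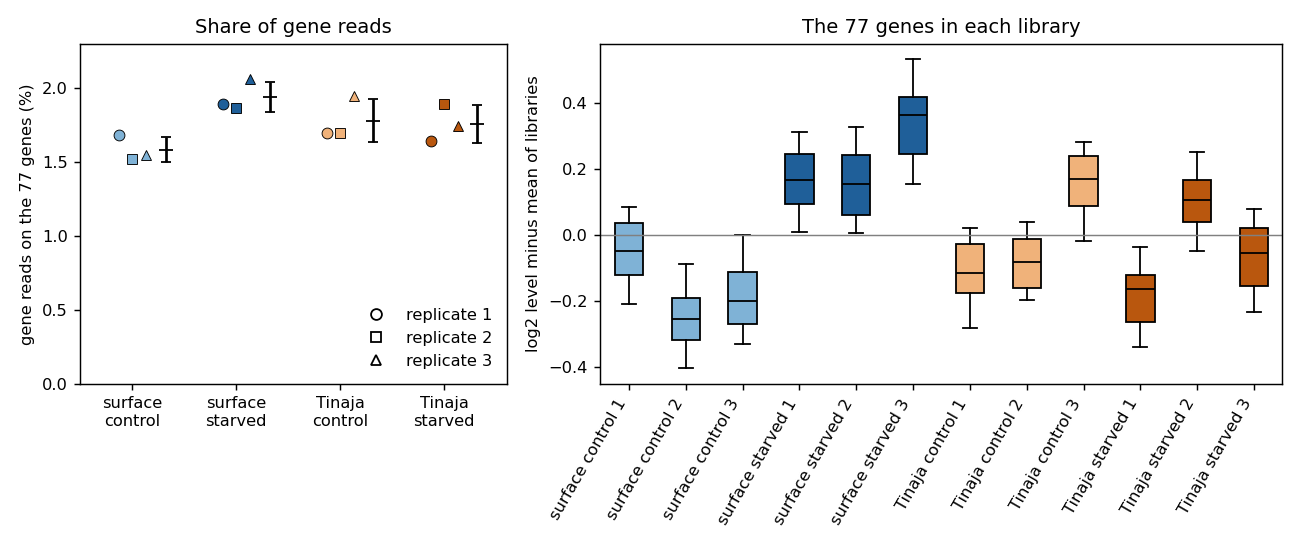
Left, percent of gene reads on the 77 genes in each library (points) with the mean and SD of 3 libraries (bars). Right, for each library, the spread over the 77 genes of the log2 level, log2(CPM + 0.5), minus the gene's mean over the 12 libraries (box: quartiles and median; whiskers: 10th and 90th percentile). All 3 starved surface libraries have medians above 0, from 0.15 to 0.36, and all 3 control surface libraries have medians below 0, from -0.25 to -0.05.

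Libraries differed from each other within groups too. Starved surface replicate 3 had the highest level of all 12 libraries for 56 of the 77 genes, and control Tinaja replicate 3 for 11. The lowest level was found in control surface replicate 2 for 37 genes, in starved Tinaja replicate 1 for 13 and in control surface replicate 3 for 12. Ranked by group mean, control surface fish came lowest of the 4 groups for 61 genes (79.2%, against 24.1% of all genes tested) and starved surface fish highest for 67 (87%, against 29.4%).

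In surface fish, 26 of the 77 ribosomal protein genes rose with starvation, 0 fell and 51 were not called at an adjusted p under 0.05 (edgeR quasi-likelihood test). Of all genes tested, 1.74% were called higher and 1.45% lower. The median log2 change of the 77 genes was 0.41, an increase of 32.7%, where the median over all genes was -0.01. For 68 of the 77 all starved libraries lay above all control libraries and for 1 below, against 13.7% and 14.8% of all genes, and at an unadjusted p under 0.05 the counts were 69 higher and 1 lower, against 11% and 11.5%. The changes lay close together: the middle 80% of the genes ran from 0.24 to 0.51, with an SD across the genes of 0.15. The median standard error of a gene was 0.107. It includes shifts of whole libraries that the genes share, so it cannot be set directly against that SD. Because of these shared shifts, counts of genes here and in the other comparisons are not counts of independent results.

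How many were called varied with the libraries used. There was 1 without control replicate 2 or without control replicate 3, 2 without starved replicate 3, 8 without starved replicate 1 or starved replicate 2, and 29 without control replicate 1, while the median change stayed between 0.32 and 0.44. Scaling by library totals alone moved the median of all genes to -0.12 and the share of higher among all calls from 54.5% to 16.7%. With that scaling 15 members were called higher, and the members' median change was 0.29, against 0.41 with TMM factors. The members' median exceeded that of all genes by 0.42 with either scaling. Scaling factors shift all genes by about the same amount, so this equal excess was fixed beforehand and does not test the scaling.

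Of the 49 large-subunit genes, 17 rose, with a median log2 change of 0.42. The smallest adjusted p belonged to rpl3, whose protein lies near the peptidyl transferase centre, where peptide bonds form. Its level was 886, 798 and 812 CPM in control surface fish and 1397, 1267 and 1450 CPM in starved surface fish, and every starved library was above every control library. The log2 change was 0.72 ± 0.0942 (SE; edgeR adjusted p = 0.00624), and rpl3 stayed called in all 6 fits that left out 1 surface library. In Tinaja cavefish rpl3 measured 1014, 1028 and 1290 CPM in controls and 1122, 1233 and 1128 CPM in starved fish. Of these 6 libraries all but control replicate 3, which exceeded the lowest starved surface library, lay between the surface groups.

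rpl6, another large-subunit gene, had 452, 416 and 405 CPM in control and 595, 564 and 653 CPM in starved surface fish (log2 change 0.51 ± 0.0818, edgeR adjusted p = 0.0197). rpl7 had 329, 306 and 262 CPM in control and 434, 408 and 509 CPM in starved surface fish (0.59 ± 0.106, edgeR adjusted p = 0.0255). Neither pair of groups overlapped. rpl8, whose protein also borders the peptidyl transferase centre, went from 234 ± 22.0 to 328 ± 26.6 CPM (edgeR adjusted p = 0.0256). rpl39, a small protein of the exit tunnel for the growing chain, went from 144 ± 5.05 to 199.6 ± 20.5 CPM (edgeR adjusted p = 0.0273). Also among the risen were rpl36a, rpl21, rpl27, rpl13a and RPL27A, with log2 changes of 0.47, 0.54, 0.48, 0.41 and 0.49 and edgeR adjusted p of 0.0310, 0.0347, 0.0374, 0.0378 and 0.0389. rpl7a, RPL19, rpl10a, rpl35, rpl18 and rpl28 rose too, with log2 changes between 0.37 (rpl18) and 0.56 (rpl28).

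Several genes with many reads were not called although their groups did not overlap. rpl4 had 639, 574 and 589 CPM in control and 745.5, 677 and 769 CPM in starved surface fish (log2 change 0.28 ± 0.0860, edgeR adjusted p = 0.0794). The small-subunit gene rps2 had 569.8, 536 and 511 CPM in control and 702, 639 and 754 CPM in starved surface fish (0.38 ± 0.0999, edgeR adjusted p = 0.0583).

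Of the 28 small-subunit genes, 9 rose, with a median log2 change of 0.37. rps8a had 409.8, 386 and 386 CPM in control and 531, 521 and 593 CPM in starved surface fish, with no overlap (log2 change 0.48 ± 0.0852, edgeR adjusted p = 0.0255). rps24 had 178, 146 and 165 CPM in control and 208, 229 and 228 CPM in starved surface fish (0.44 ± 0.0881, edgeR adjusted p = 0.0294). rps6, whose protein is the substrate that gave the ribosomal S6 kinases their name, rose from 280.1 ± 16.5 to 379 ± 38.6 CPM (0.44 ± 0.101, edgeR adjusted p = 0.0456). The remaining 6 were rps13, rps16, rps15a, rps3a, rps4x and rps10, with changes between 0.32 (rps16) and 0.51 (rps15a).

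**Figure D2:**
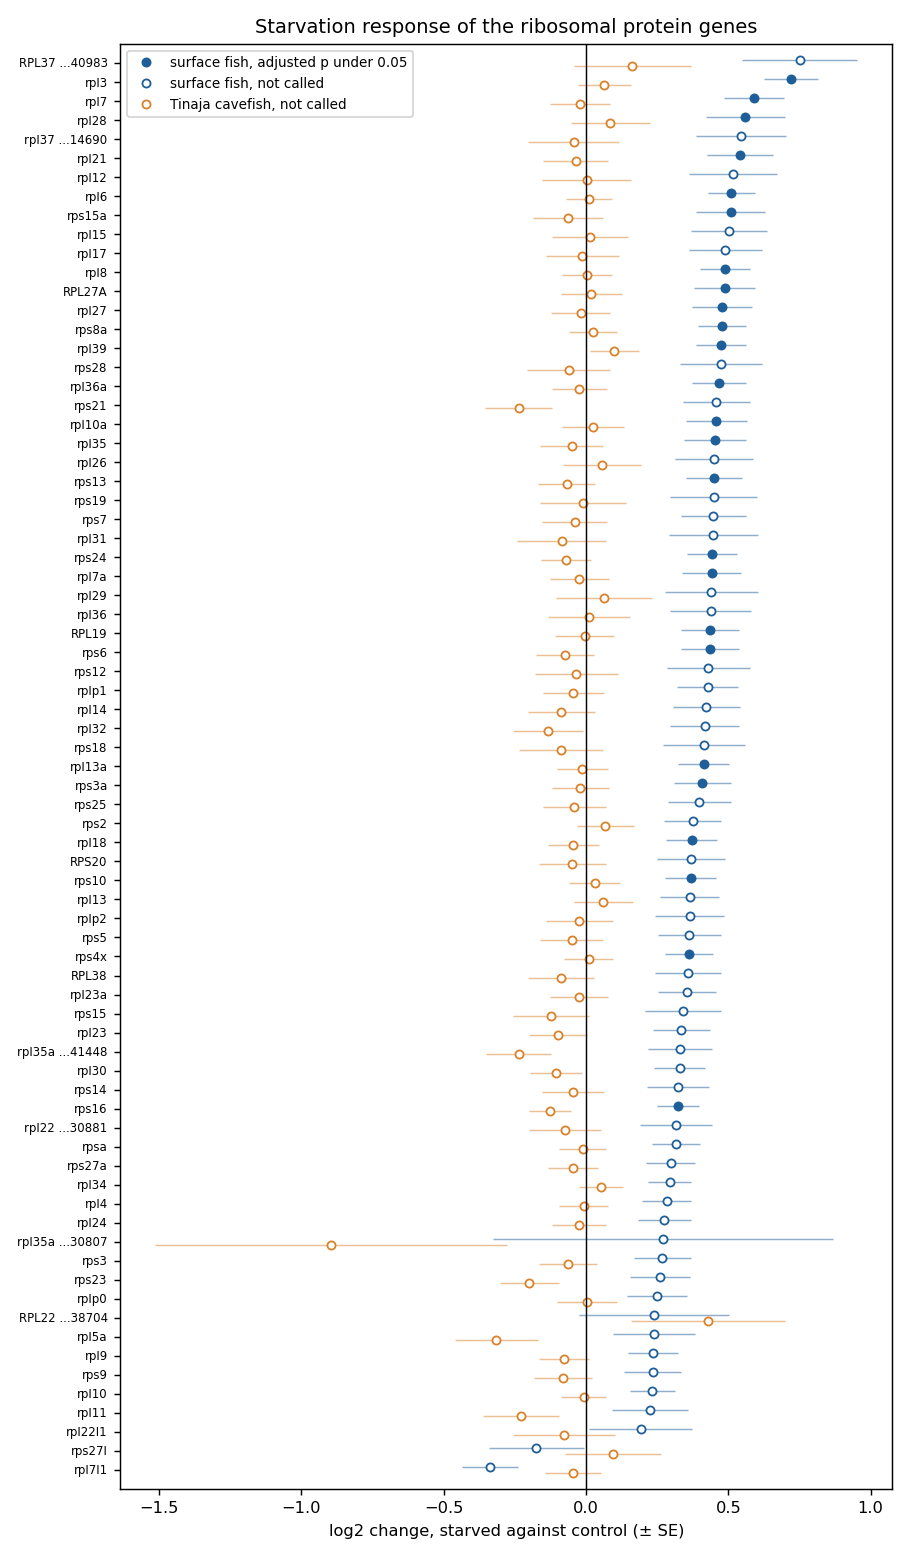
The log2 change from control to starved fish (x axis; bars are ± 1 SE) for 75 of the 77 genes, ordered by the surface value, in surface fish (blue; filled where the adjusted p is under 0.05) and Tinaja cavefish (orange, all open). Of the blue points 73 lie right of 0, while the orange points lie on both sides of it, 22 positive and 53 negative.

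The stalk of the large subunit, which recruits translation factors, is made of rplp0 at its base and of rplp1 and rplp2. rplp1 had 232, 221 and 229 CPM in control and 286, 287 and 343 CPM in starved surface fish, which did not overlap, and missed the threshold (log2 change 0.43 ± 0.107, edgeR adjusted p = 0.0517). rplp2 measured 40.6 ± 0.288 and 52.1 ± 7.51 CPM (edgeR adjusted p = 0.102) and rplp0 318 ± 18.6 and 379 ± 41.2 CPM (edgeR adjusted p = 0.185). The small-subunit gene rpsa, once named as a laminin receptor, measured 499 ± 24.7 and 621 ± 37.4 CPM (edgeR adjusted p = 0.0562). None of these 4 genes was called for starvation in surface fish.

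The proteins of rpl5 and rpl11 bind 5S ribosomal RNA before it joins the large subunit, and in mammals the same particle restrains the p53 inhibitor MDM2. The fish has 2 rpl5 genes, of which the symbol rule takes only rpl5a. rpl5b had 381, 330 and 333 CPM in control and 480, 443 and 540.3 CPM in starved surface fish and rose (log2 change 0.49 ± 0.102, edgeR adjusted p = 0.0337). rpl5a had 86.0, 75.9 and 71.6 CPM in control and 91.1, 95.3 and 89.2 CPM in starved surface fish, with no overlap and no call (0.24 ± 0.145, edgeR adjusted p = 0.357). For rpl11 the surface means were 200.1 ± 5.32 and 234 ± 13.3 CPM (edgeR adjusted p = 0.350).

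The 2 members with a negative change in surface fish, rpl7l1 and rps27l, were like-named copies. Small changes were not limited to copies: rpl11 changed by 0.225 ± 0.134 and rpl10 by 0.233 ± 0.0784. rpl7l1, an rpl7-like gene whose mammalian counterpart acts in assembly of the large subunit, had 84.5, 86.7 and 82.9 CPM in control and 64.2, 77.8 and 59.4 CPM in starved surface fish. Every starved library was below every control library, the reverse of rpl7, but the change was not called (log2 change -0.34 ± 0.0982, edgeR adjusted p = 0.0717). It was called lower with DESeq2, with library totals alone and without starved replicate 2. The reads of rpl7l1 per read of rpl7 came to 0.286 ± 0.0295 in control and 0.152 ± 0.0372 in starved surface fish, and to 0.195 ± 0.0204 and 0.193 ± 0.0301 in Tinaja controls and starved fish; the pair was chosen after its values were seen.

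rps27l, a copy of rps27, was the only other member with a negative change in surface fish, at 22.4 ± 1.63 and 19.8 ± 2.90 CPM (log2 change -0.17 ± 0.166, edgeR adjusted p = 0.583). rpl22l1, a copy of rpl22, changed by 0.19 ± 0.182 (edgeR adjusted p = 0.581), at 12.4 ± 2.45 and 14.1 ± 1.02 CPM. Both groups of libraries overlapped for these 2 genes. They also overlapped for rps9, rps15, rpl31, the 2 genes named rpl22 and the rpl35a of few reads.

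Among the 77, 3 symbols occur on 2 genes each. RPL19 also has a second gene of its symbol, which had at most 11 reads in any library and was not tested. Reads of near-identical copies may be split between them, so single values of these genes are uncertain. The gene with the largest change of the 77 was such a copy, RPL37 ENSAMXG00000040983, with 19.9, 12.6 and 14.9 CPM in control and 20.6, 27.6 and 31.7 CPM in starved surface fish (log2 change 0.75 ± 0.202, edgeR adjusted p = 0.0592). Its larger copy rpl37 ENSAMXG00000014690 changed by 0.54 ± 0.158 (edgeR adjusted p = 0.0715). RPL22 ENSAMXG00000038704 had 8.51 ± 1.04 and 10.0 ± 2.05 CPM, beside 107 ± 11.2 and 133 ± 20.9 CPM for rpl22 ENSAMXG00000030881, and neither was called. rpl35a ENSAMXG00000030807 had only 2 to 14 reads per library, which cannot show a change of this size (SE 0.597), and rpl35a ENSAMXG00000041448 measured 44.5 ± 4.17 and 56.0 ± 3.95 CPM (edgeR adjusted p = 0.108).

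**Figure D3:**
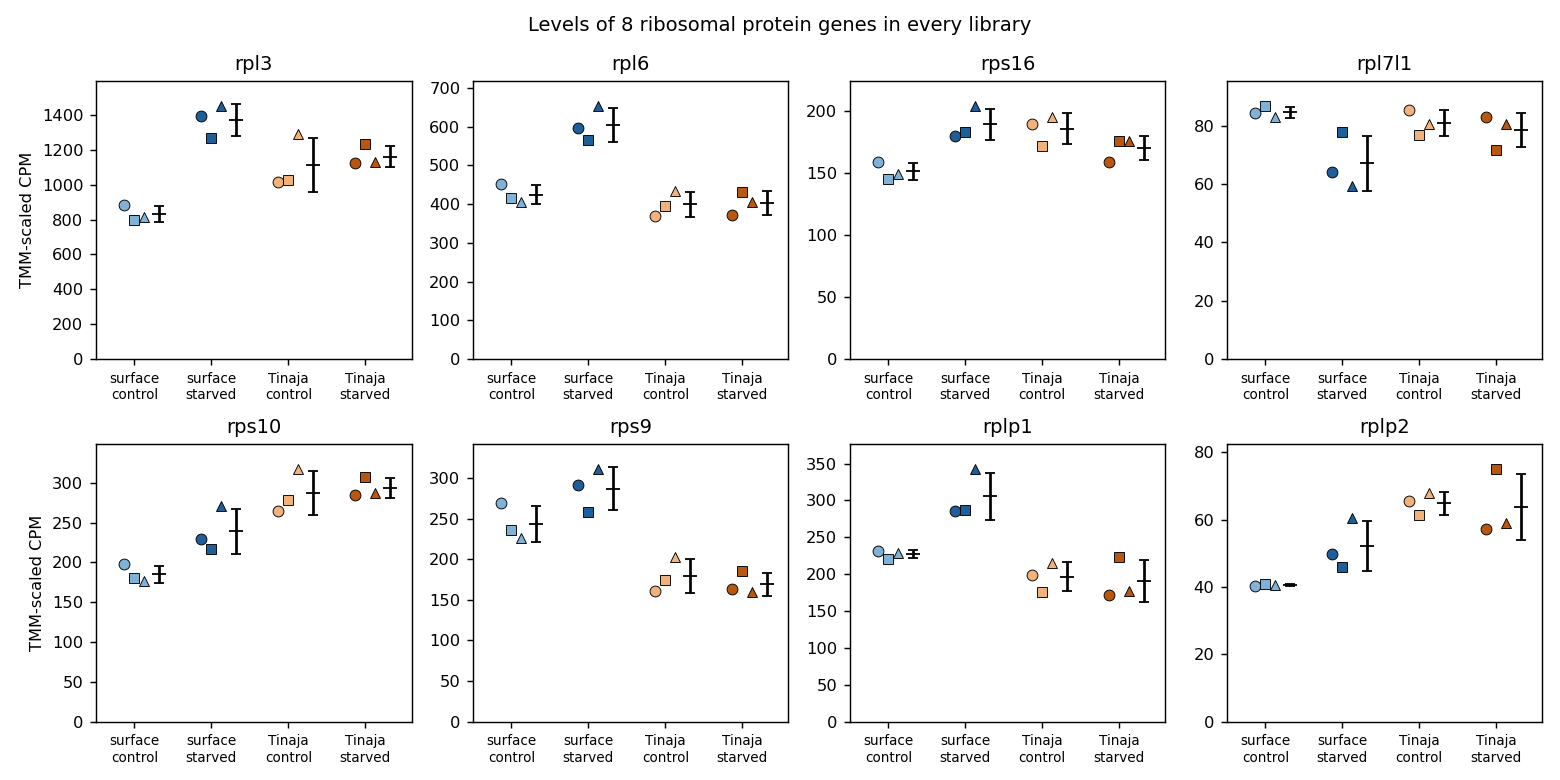
TMM-scaled CPM (y axis, from 0) of 8 genes in every library (points; circle, square and triangle for replicates 1, 2 and 3) with the mean and SD of 3 libraries (bars). In rpl3 and rpl6 the starved surface libraries stand above all others except, for rpl3, control Tinaja replicate 3, which exceeds the lowest of them; in rps9 all 6 Tinaja libraries lie below all 6 surface libraries.

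In Tinaja cavefish, 0 of the 77 genes were called higher or lower with starvation (edgeR quasi-likelihood test; smallest adjusted p = 1), and 0 had an unadjusted p under 0.05. DESeq2 and limma's voom also called 0. At an unadjusted p under 0.05, 9 members were lower without starved replicate 2, 4 without control replicate 2 and 3 without control replicate 1 or with library totals alone, and 1 was higher without control replicate 3 or without starved replicate 1. Of all genes, 0.00684% were called higher and 0.0137% lower, and at an unadjusted p under 0.05 2.12% and 1.83%, so few genes were called here of any kind. The median log2 change of the 77 was -0.04, with 22 positive and 55 negative values and a middle 80% from -0.13 to 0.06. In all 77 the control and starved libraries overlapped, where 4.69% of all genes lay wholly higher and 3.93% wholly lower in starved fish.

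The largest Tinaja changes by size were those of genes with few reads: -0.90 ± 0.617 for rpl35a ENSAMXG00000030807 and 0.43 ± 0.272 for RPL22 ENSAMXG00000038704. rpl5a came next, with 93.8, 96.0 and 112 CPM in control and 75.5, 103 and 63.8 CPM in starved fish (log2 change -0.32 ± 0.145, edgeR adjusted p = 1). rpl6, by contrast, had 369, 396 and 434 CPM in control and 371, 432 and 404 CPM in starved fish (0.01 ± 0.0820). The median change was 0.07 without control replicate 3 and -0.10 without starved replicate 2, so its sign rested on single libraries.

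The difference between the 2 starvation responses was tested directly. 0 of the 77 genes were called (edgeR interaction test; smallest adjusted p = 0.145, for rpl3), while 0.0205% of all genes were called with a higher and 0.0479% with a lower response in Tinaja cavefish. At an unadjusted p under 0.05 the Tinaja response was lower for 63 of the 77 and higher for 0, against 7.22% and 8.26% of all genes. The response was lower in Tinaja cavefish for 74 of the 77, and the median log2 difference was -0.45, beside 0.01 over all genes. The 77 genes shift together within libraries, so these counts are not 77 independent results. DESeq2 called 16 of the 77 lower. The 63 became 39 without starved surface replicate 3 or without control Tinaja replicate 3, and 42 without control surface replicate 2.

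Beyond the rpl35a copy of few reads, the largest differences were those of rps21, rpl3, rpl7 and the 2 genes named rpl37. rps21 had 53.2, 47.1 and 47.8 CPM in control and 67.9, 71.0 and 64.7 CPM in starved surface fish, and 55.3, 53.2 and 66.9 CPM in control and 46.1, 58.3 and 44.1 CPM in starved Tinaja cavefish. All starved surface libraries lay above the surface controls, and the Tinaja groups overlapped. The difference of responses was -0.70 ± 0.167 for rps21 (edgeR adjusted p = 0.160), -0.66 ± 0.133 for rpl3 and -0.61 ± 0.149 for rpl7 (edgeR adjusted p = 0.160). 3 genes had a difference above 0: rpl7l1 (0.29 ± 0.139), rps27l (0.27 ± 0.236) and RPL22 ENSAMXG00000038704 (0.19 ± 0.379), with edgeR adjusted p of 0.337, 0.618 and 0.853.

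Among control fish, 12 of the 77 genes were higher and 1 lower in Tinaja than in surface fish (edgeR quasi-likelihood test), where 16% of all genes were called higher and 16.4% lower. The count of higher calls is thus near the background and that of lower calls below it. The median log2 difference was 0.16, with 62 genes positive. For 27 genes all Tinaja controls lay above all surface controls and for 6 below, against 23.2% and 23.8% of all genes. At an unadjusted p under 0.05 the counts were 25 higher and 1 lower, against 21.5% and 21.7%. Without control surface replicate 2 or 3 the 25 became 13 or 15. Without control Tinaja replicate 3 there were 9 higher and 5 lower at that level, the median was 0.07, and 6 genes were called higher and 3 lower, rps9 and rpl24 among them.

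The genes with the smallest adjusted p were rps10 and rplp2. rps10, a protein of the head of the small subunit, had 198, 181 and 177 CPM in surface controls and 265, 279 and 317 CPM in Tinaja controls (log2 difference 0.63 ± 0.0904, edgeR adjusted p = 0.00027). rplp2 had 40.3, 40.9 and 40.6 CPM in surface controls and 65.5, 61.3 and 67.8 CPM in Tinaja controls (0.68 ± 0.121, edgeR adjusted p = 0.00123). For both genes the Tinaja controls lay above the surface controls with no overlap. The other 10 were rpl7, rpl3, rpl13a, rps16, rps7, rpl22l1, rps27a, rpl11, rpl9 and RPS20, with log2 differences between 0.26 (rpl9) and 0.59 (rpl22l1) and edgeR adjusted p between 0.00467 (rpl7) and 0.0460 (RPS20). Of these, rpl11 rested on Tinaja replicate 3, at 334 CPM beside 229.6 and 223 CPM, and without that library its difference was 0.18 (edgeR adjusted p = 0.150). rps9, a protein of the body of the small subunit, was lower, with 269, 236 and 227 CPM in surface and 161, 174 and 203 CPM in Tinaja controls (-0.44 ± 0.102, edgeR adjusted p = 0.0059).

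Among starved fish the direction was the opposite for most members. 32 of the 77 were lower and 1 higher in Tinaja than in surface fish (edgeR quasi-likelihood test), where 20% of all genes were called lower and 20.3% higher. The median log2 difference was -0.27, with 73 genes negative, and for 38 genes all starved Tinaja libraries lay below all starved surface libraries and for 2 above, against 26% and 26.6% of all genes. At an unadjusted p under 0.05 the counts were 45 lower and 3 higher, against 24.3% and 24.9%; without starved Tinaja replicate 1 the 45 became 29, and with library totals alone 26. The 32 held 21 large-subunit and 11 small-subunit genes. Leaving out starved surface replicate 3 or starved Tinaja replicate 1 left 14 called lower and leaving out starved Tinaja replicate 3 left 18, and with library totals alone 17 were lower and 66.1% of all calls were higher, against 50.3% with TMM factors.

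rps9 had the smallest adjusted p, with 291, 259 and 311 CPM in starved surface and 163, 186 and 159 CPM in starved Tinaja fish (log2 difference -0.76 ± 0.102, edgeR adjusted p = 0.000153). rplp1 had 286, 287 and 343 CPM in starved surface and 171, 223 and 178 CPM in starved Tinaja fish (-0.68 ± 0.108, edgeR adjusted p = 0.000482). rpl6, rpl30 and rpl36a were lower by similar amounts, with log2 differences of -0.59, -0.62 and -0.61 and edgeR adjusted p of 0.000199, 0.000265 and 0.000451. Also lower were rpl34, rps24, rpl24, rpl8, rps21 and rps3, with differences between -0.45 (rps21) and -0.34 (rpl8). rps10 was the 1 gene called higher, at 229, 217 and 270.2 CPM in surface and 285, 307 and 287 CPM in Tinaja fish (0.30 ± 0.0897, edgeR adjusted p = 0.0206); without starved surface replicate 1, starved surface replicate 2 or starved Tinaja replicate 2 it was not called.

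**Figure D4:**
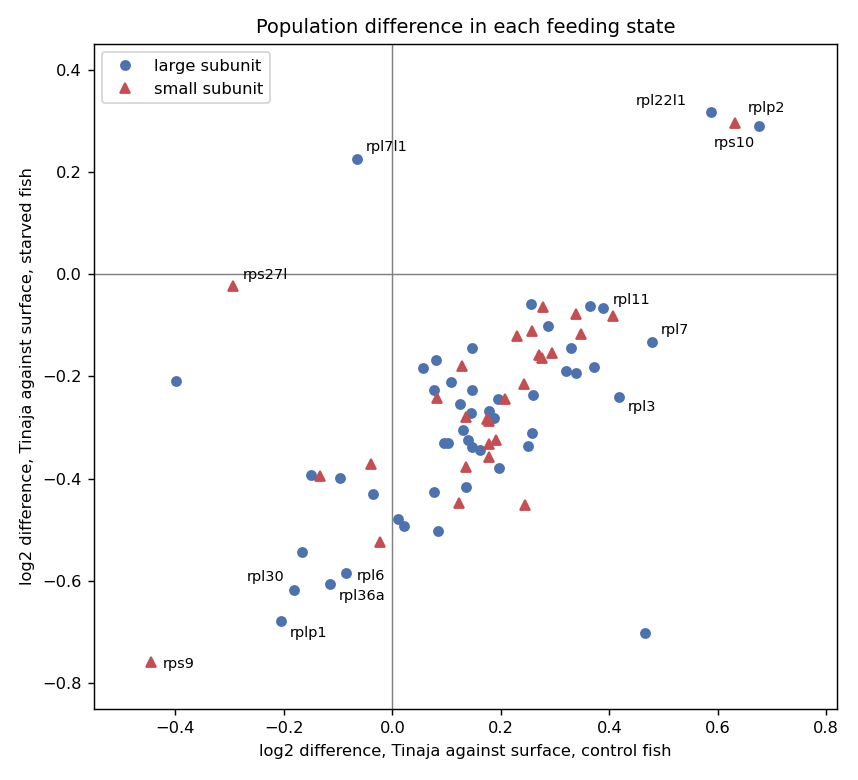
For each of the 77 genes, the log2 difference of Tinaja against surface fish in control fish (x axis) and in starved fish (y axis), with large-subunit genes as blue circles and small-subunit genes as red triangles. Most points (59) lie at the lower right, higher in Tinaja controls and lower in starved Tinaja fish; rps9 lies at the lower left, and rps10, rplp2 and rpl22l1 at the upper right.

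Over both feeding states, 59 of the 77 genes were higher in Tinaja than surface fish among controls and lower among starved fish, 14 were lower in both, 3 higher in both and 1, rpl7l1, lower and then higher. Of all 14627 genes, 1733 went from higher to lower and 5603 and 5498 were higher or lower in both. The 3 members higher in both states were rps10, rplp2 and rpl22l1. Among starved fish rplp2 and rpl22l1 were not called (edgeR adjusted p = 0.0715 and 0.179). The rplp2 copy rplp2l, which the symbol rule misses, had log2 differences of 0.259 in control and -0.145 in starved fish. Neither was called (edgeR adjusted p = 0.165 and 0.415). All 6 Tinaja libraries lay above all 6 surface libraries for rpl22l1 and below them for rps9 and rpl30, that is 1.3% and 2.6% of the members against 12.6% and 13% of all genes. rpl22l1 had 10.3 to 15.1 CPM in surface and 15.4 to 23.0 CPM in Tinaja fish, and rpl30 169 to 229.5 CPM in surface and 130 to 167 CPM in Tinaja fish.

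Some pairs of proteins that sit in 1 ribosome together had different proportions of reads in the 2 populations. The following pairs were chosen after their values were seen, so their ratios are given without a test. rplp1 and rplp2, which pair in the stalk, had a ratio of reads of 5.41 to 5.75 in control and 5.66 to 6.24 in starved surface fish, and of 2.86 to 3.18 and 2.98 to 3.02 in control and starved Tinaja cavefish. All 6 Tinaja libraries lay below all 6 surface libraries in this ratio. Counting the copy rplp2l with rplp2, the mean ratios were 1.58 and 1.69 for control and starved surface fish and 1.05 and 1.06 for the Tinaja groups. For rps9 and rps10 the ratio was 1.28 to 1.36 in control and 1.15 to 1.27 in starved surface fish, and 0.608 to 0.639 and 0.555 to 0.604 in control and starved Tinaja cavefish, again with all 6 Tinaja libraries below all 6 surface libraries. Reads of both populations were counted on 1 annotation, and how sequence differences between the populations affect the counts of a gene was not tested.

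Ribosomal protein genes that the symbols miss were read beside the 77. rack1, whose protein is a scaffold on the small subunit, rose in starved surface fish from 321 ± 16.1 to 434 ± 47.8 CPM (log2 change 0.43 ± 0.0998, edgeR adjusted p = 0.0440). faua, which codes for a ribosomal protein fused to a ubiquitin-like protein, had a log2 change of 0.31 and rplp2l one of 0.32, with edgeR adjusted p of 0.202 and 0.192. In Tinaja cavefish rack1, faua, rplp2l and rpl5b had changes between -0.09 (rplp2l) and 0.01 (faua), none called.

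Genes related to the ribosome in other ways were taken as lists of known genes, and their counts in surface fish stand against 1.74% of all genes called higher and 1.45% lower. Among 29 other translation genes with pyrimidine-start messages in vertebrates, 7 rose and 0 fell in starved surface fish, with a median log2 change of 0.26. They were rack1, the poly(A)-binding protein gene pabpc1b (1333 ± 78.6 to 1756 ± 181 CPM), the elongation factor gene eef1b2, the initiation factor gene eif3ha, btf3, tpt1 and hnrnpa1a, with edgeR adjusted p between 0.0293 and 0.0458. Ribosome biogenesis genes, which make and fold ribosomal RNA and assemble subunits, gave counts near those shares: of 111, 3 rose and 1 fell, with a median of 0.06. The 3 were MDN1, a motor of large-subunit maturation (395 to 517 CPM on average, edgeR adjusted p = 0.0175), nolc1 and zgc:56699. The helicase gene ddx54 fell from 74.4 to 51.6 CPM (edgeR adjusted p = 0.0389). The summed level of the 111 was 10865.9 to 11247.4 CPM in control and 11460.1 to 11969.5 CPM in starved surface fish. For 23 of the 111 all starved libraries lay above all controls and for 7 below, against 13.7% and 14.8% of all genes.

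The shorter lists hold few genes, and their calls are read against the same 1.74% and 1.45%. Of 18 genes of RNA polymerase I, which transcribes ribosomal RNA, and its factors, 3 rose (polr1e, polr1f and nolc1) and the median change was 0.08. That is a larger part than among all genes, but nolc1 stands in both lists and was also counted among the risen biogenesis genes. For 6 of the 18 all starved libraries lay above all controls and for 0 below, against 13.7% and 14.8% of all genes. Of 36 genes of mTOR signalling to translation, 0 rose and 1 fell, with a median of 0.04; the 1 was eif4ebp3l, which codes for a repressor of the cap-binding protein, at 19.8 and 12.5 CPM (log2 change -0.67, edgeR adjusted p = 0.0470). Of 7 genes for storage of 5S RNA and messenger RNA in oocytes, 42sp43, a binding protein of 5S RNA in frog oocytes, rose from 193 to 261 CPM (0.44, edgeR adjusted p = 0.0255) and the median was 0.20. In starved Tinaja cavefish 0 genes of each of these 5 lists were called, and their medians lay between -0.03 and 0.00.

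**Figure D5:**
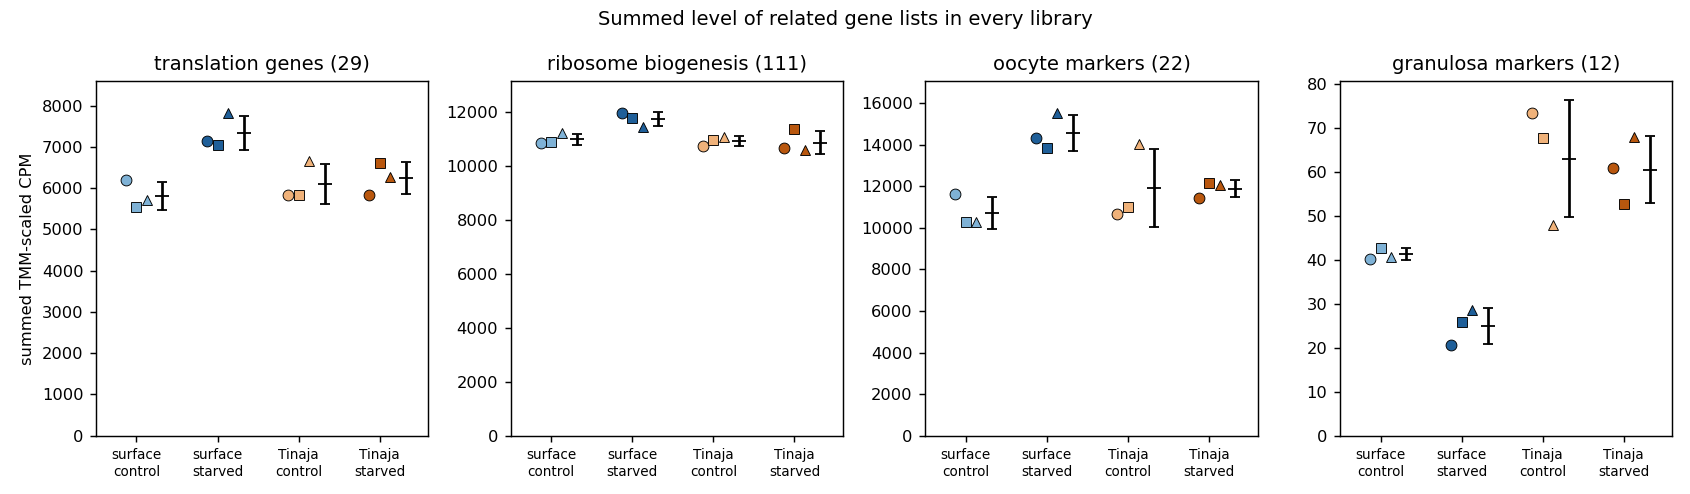
Summed TMM-scaled CPM (y axes, from 0, a separate scale in each panel) of 4 gene lists in every library (points; circle, square and triangle for replicates 1, 2 and 3) with the mean and SD of 3 libraries (bars); the number of genes is in each title. In translation genes, ribosome biogenesis genes and oocyte markers the starved surface libraries lie above the surface controls, and in granulosa markers below them.

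Some markers of ovarian cell types changed in the same comparison. The summed level of 22 oocyte markers was 10259.5 to 11622 CPM in control and 13829 to 15507 CPM in starved surface fish, and 10679.7 to 14048 and 11419 to 12168 CPM in control and starved Tinaja cavefish. Of these 22, 6 rose in surface fish (zp3c, rbpms2b, btg4, zar1l, zp2l2 and cpeb1b) and 0 fell, with a median log2 change of 0.32, where 1.74% of all genes were called higher and 1.45% lower. The library with the highest oocyte sum in each population, starved surface replicate 3 and control Tinaja replicate 3, was also the library with the largest share of reads on ribosomal protein genes. Granulosa markers, of the cells around the oocyte, had sums of 40.2 to 42.8 and 20.5 to 28.6 CPM in control and starved surface fish. Of 12 tested, 0 rose and 2, pgr and lhcgr, fell (median -1.54). These genes had few reads, with a median standard error of 0.524, and 8 of the 20 granulosa genes counted were not tested.

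Of 6 theca and steroid synthesis markers, 0 rose and 1, lhcgr again, fell, where 1.74% of all genes were called higher and 1.45% lower. The sum of the 6 was 10.0 to 10.1 CPM in control and 2.41 to 3.94 CPM in starved surface fish. These are few reads per gene, with a median standard error of 0.729. Of the 11 theca genes counted, 5 were not tested. Of 13 stroma, 12 macrophage and neutrophil, 5 blood vessel, 2 red blood cell and 8 smooth muscle markers, 0 were called for starvation in either population. Most stroma, macrophage and neutrophil markers had changes below 0 without a call. The stroma median was -1.08 in surface fish (11 of 13 negative, 4 of them at an unadjusted p under 0.05) and -0.71 in Tinaja cavefish (13 of 13 negative, 1 at that level). Macrophage and neutrophil markers had medians of -0.75 (10 of 12 negative) and -0.62 (11 of 12 negative), with 0 at that level. Of all 14627 genes, 7507 had a negative change in surface fish and 7302 in Tinaja cavefish. At that level 11.5% and 1.83% of all genes were lower. Stroma sums were 392 to 530.0 and 391 to 472 CPM in control and starved surface fish, and 556 to 1044 and 437 to 791 CPM in the Tinaja groups, which overlapped in both populations. Macrophage and neutrophil sums were 40.9 to 237 and 66.8 to 106 CPM, and 283 to 975 and 103 to 605 CPM. No marker list held a tested gene called in starved Tinaja cavefish. In bulk tissue, fewer cells of a type and less RNA per cell cannot be told apart, and the part of these markers in the ribosomal protein result was not tested.

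The same lists were read between the populations, where 20.3% of all genes were called higher and 20% lower among starved fish and 16% and 16.4% among controls. Among starved fish, 2 of the 29 translation genes were higher and 9 lower in Tinaja than in surface fish, 14 and 24 of the 111 biogenesis genes, and 0 and 12 of the 22 oocyte markers, while 7 of 12 granulosa markers were higher and 0 lower. Among control fish the counts were 6 higher and 1 lower, 12 and 9, 4 and 2, and 2 and 0. In starved fish 4 of 6 theca, 8 of 13 stroma and 4 of 12 macrophage and neutrophil markers were also higher in Tinaja. So were 3 of 8 smooth muscle and 1 of 5 blood vessel markers, and 0 were lower in these lists. The 2 red blood cell markers were lower. In controls 2, 2, 2, 1 and 0 were higher in that order and 0 lower, and 1 red blood cell marker was lower. These marker lists are not separate sets of genes. The granulosa and theca lists both name lhcgr and star, and the theca and stroma lists both name pdgfra. Of 36 mTOR genes, 3 were higher and 11 lower in starved fish, and 3 and 5 in controls. The biogenesis counts lay near or below the shares of all genes in both states. Of the 18 RNA polymerase I genes, 6 were higher and 2 lower in Tinaja controls (median 0.25), and 5 and 4 in starved Tinaja fish (median -0.09). The elongation factor gene eef1b2 was lower in Tinaja fish in both states, at 395 and 504 CPM in control and starved surface fish and 293 and 292 CPM in Tinaja fish (log2 differences -0.43 and -0.79, edgeR adjusted p = 0.000806 and 8.97e-06). RRN3 of the RNA polymerase I list, whose protein brings that polymerase to its promoter, was lower in both states. It had 77.7 and 71.7 CPM in surface and 18.5 and 19.3 CPM in Tinaja fish (-2.07 and -1.90, edgeR adjusted p = 7.18e-06 and 1.31e-05). The part of these markers in the population differences of the ribosomal protein genes was not tested.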

How the data were processed

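Bulk RNA from right ovaries was sequenced in 4 groups of 3 libraries. Per the labels' protocols, ribosomal RNA was depleted and directional libraries were made. The authors deposited a table of raw read counts per gene (27420 genes, 16752 with a symbol) and a scaled signal table of 14627 genes, whose values equal edgeR's TMM-scaled CPM of the counts with a largest relative difference of 4.97e-15. Turned back into reads, 100% of those deposited signal values were whole to within 0.001. The count test on them gave 466 calls for surface starvation, the number that the deposited counts gave. Since the scaled values equal those of the counts, this match was fixed beforehand and is no separate check of the calls. Tools named per the submitters' processing notes are STAR 2.7.10b and RSEM. Not given in the sources used here: genome build, annotation and strand setting. Overlapping, antisense and near-identical genes are therefore uncertain. Entries that name no gene were left out of library sizes: unmapped reads (7.28% to 10.1% of all), multimapping reads (9.91% to 16.8%), reads outside genes (14.1% to 17.9%) and ambiguous reads (0.276% to 0.368%). Reads mapped to several places were 11.5% to 13.0% in control and 9.91% to 11.9% in starved surface fish, and 12.1% to 13.6% and 12.5% to 16.8% in Tinaja cavefish; their part in the counts of genes with close copies was not tested.

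The test was the quasi-likelihood F test of edgeR 4.0.16 (R 4.3.3) after filterByExpr with a minimum count of 10, with TMM factors, 1 robust fit to the 12 libraries with a mean for each group, and Benjamini-Hochberg adjustment over all 14627 genes, called under 0.05. The standard error is approximate: the log2 value, without its sign, over the square root of F. Reads counted without molecular identifiers are not independent molecules, so intervals cover counting error only. No 2 libraries of a group agreed within sampling noise (chi-square per degree of freedom 5.71 to 10.9). The fit was tested on simulated data. Those counts were drawn for each gene separately and lack shifts that genes share within a library, so they do not check the calls of these members. Alternatives were other scalings, no filter, DESeq2 1.42.0, voom of limma 3.58.1, libraries of the comparison alone, thinned libraries, a replicate block and leaving out each library; library totals alone and the recovered reads were added after seeing the data.

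The members and gene lists were chosen with earlier results of these data known. Per comparison the rule names up to 12 members called in each direction by smallest adjusted p, the stalk and 5S genes, rpsa, rpl3, rps6, like-named copies, the 5 members with most and fewest reads, the 6 largest differences of responses and the 3 farthest against the median. From each list it names up to 4 called genes per comparison. For surface starvation the text goes beyond this and names all 7 called translation genes and all 6 called oocyte markers. No sequence is shown, and a few genes are not reported here.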

Additional observations from a re-analysis of the deposited data

How the results depend on the processing

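Of the named members' calls, 0 changed direction under the alternatives run. They were picked by small adjusted p on the same counts, so this could hardly come out otherwise. Of the 12 named calls for surface starvation, 11 were lost without control replicate 2 and 11 without control replicate 3. Without starved replicate 3, 10 were lost, and with a replicate block 8. For starvation in surface fish, the genes called (466) became 1301 with DESeq2, 141 with the libraries of the comparison alone and 701 with library totals alone. The members called higher (26) became 54 with DESeq2, 12 with upper-quartile factors, 7 with the libraries of the comparison alone and 15 with library totals alone; 1 member, rpl7l1, was called lower with DESeq2 and 1, the same gene, with library totals alone. DESeq2 gave no adjusted p for 1 member here and 5 in the difference of responses. For starvation in Tinaja cavefish, the genes called (3) became 18 with DESeq2, 1 with voom and 0 with the libraries of the comparison alone. For the difference of responses (10 genes), DESeq2 called 270 genes and 16 members lower. Between populations, library totals alone called 21 members higher among controls (12) and 3 higher and 17 lower among starved fish (1 and 32), and thinned libraries called 2 higher among starved fish. The cause of these shifts was not tested.

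The replicate numbers did not pair the libraries: over 18 same-numbered pairs the correlation of deviations from the group means ran from -0.311 to 0.083, and 2 of 12 libraries correlated best with their own number. With a replicate block the surface starvation counts were 80 genes and 4 members higher (rpl3, rpl6, rpl8 and rps8a).

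Leaving out 1 library at a time gave 27 to 540 genes, 1 to 29 members higher and 0 to 1 lower for surface starvation. It gave 3 to 34 genes and 0 members for Tinaja starvation, and 8 to 49 genes and 0 members for the difference. Among controls it gave 3723 to 4082 genes, 6 to 14 members higher and 1 to 3 lower, and among starved fish 4743 to 5118 genes, 0 to 2 members higher and 14 to 40 lower. The members' median ranged from -0.10 to 0.07 for Tinaja starvation and from -0.53 to -0.34 for the difference. Among genes of few reads, such as the rpl35a copy with 2 to 14 reads per library, depth limits what can be seen.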
